A study of Aspergillus nidulans with 32 samples.

Results

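Mycelium of the filamentous fungus Aspergillus nidulans with a history of starvation answered 1 h in salt medium differently from mycelium without it. Salt medium lacks carbon and nitrogen. The difference in response was called for 2914 of 10022 tested genes (29.1%). The measurement was an interaction: the log2 salt response of pre-starved cultures minus the log2 salt response of naive cultures. The 4 groups used hold 16 of the 32 sequenced libraries, that is, 8 of 16 cultures with 2 technical libraries each. Naive cultures were grown in glucose and nitrate minimal medium for 24 h, moved to fresh minimal medium for 2 h (naive refed), and in the other group then held in salt medium for 1 h (naive salt). Pre-starved cultures were grown for 20 h, held in salt medium for 4 h, refed in minimal medium for 2 h (pre-starved refed), and in the other group returned to salt medium for 1 h (pre-starved salt). All were shaken liquid cultures. The history therefore holds the first 4 h in salt, a growth phase 4 h shorter and 1 further change of medium, and these cannot be told apart. The step from refed to salt likewise holds 1 further hour and 1 further change of medium, which cannot be told apart from the salt medium. Salt response below means that whole step. The labels name a wild-type strain, FGSC#4, and a strain that carries alcA(p)-sGFP-aflR, RKIS42.17, without saying which gave which sample, and also list auxotrophic markers.

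A fungus that runs out of carbon and nitrogen shuts down uptake of the preferred nutrients, growth and ribosome production, and turns to recycling by autophagy, to stored carbon and, over longer times, to spore formation and secondary metabolites. In A. nidulans the nitrate genes are switched on by nitrate and off by preferred nitrogen sources, glycolytic genes follow sugar supply, and the regulator brlA starts the programme that makes asexual spores. A difference in response can have a pair of sources: the cultures may already have differed after refeeding, before any salt, or they may have reached different levels in salt. The refed-level difference is pre-starved minus naive after refeeding, the salt-level difference is pre-starved minus naive after 1 h of salt, and the interaction is the salt-level minus the refed-level difference. A positive interaction thus means a response that was higher (more positive or less negative) in pre-starved cultures.

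The 16 libraries held 23904302 to 33202687 counts, and summed cultures 48164721 to 66121549. Chi-square over its degrees of freedom, which is about 1 for counting noise alone, was 2.16 to 2.29 between technical libraries of a culture in these groups and 53.3 to 187 between the cultures of a group, so the technical libraries were summed and n = 2 cultures per group throughout. The labels call A and B biological replicates. Levels below are read counts per 1e6 counts of the culture (CPM), scaled by trimmed mean of M-values (TMM) factors, given for culture A and then B. The TMM factors moved with the medium, from 0.707 to 0.848 in the refed cultures and from 1.17 to 1.27 in the salt cultures. In bulk RNA, fewer cells that use a gene and less of its RNA per cell cannot be told apart.

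The interaction was called for 1710 genes as higher (17.1%) and for 1204 as lower (12%) in pre-starved cultures (edgeR quasi-likelihood test, Benjamini-Hochberg adjusted p under 0.05 over all tested genes). The split depended on the scaling: 58.7% of calls were higher with TMM, 77.8% with library totals and 44.5% with DESeq2 size factors. The median interaction over all tested genes was 0.12 with TMM, 0.36 with library totals and -0.01 with DESeq2 size factors, so small interactions are to be read against that shift. Of the 2914 genes, 1419 were past 2-fold (14.2% of tested genes), and 1597 were called in each of the 8 fits that left out 1 culture. The responses themselves were far more common: a salt response was called for 7548 genes in naive cultures (75.3%) and 7671 in pre-starved cultures (76.5%). Across genes, which are not independent, the naive and pre-starved responses had a Pearson r of 0.88 and a slope of 0.90. Responses called in opposite directions in both histories were found for 249 interaction genes, 156 of them lower in naive and higher in pre-starved cultures and 93 the reverse.

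The refed-level difference was called for 4277 genes (42.7%, with 21.4% higher and 21.3% lower in pre-starved cultures). The salt-level difference was called for 4306 (43%, with 24.7% higher and 18.2% lower), so the histories differed at both time points. Across genes these differences, which share no culture, had a Pearson r of 0.43 and a Spearman rho of 0.39. They had the same sign and were both called for 1900 genes, and 2565 genes with a called salt-level difference had no called interaction. For these, a level that differed in salt gave no detected difference in response. Among the interaction genes, the salt-level difference was the larger in size for 1333 (45.7%).

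**Figure D1:**
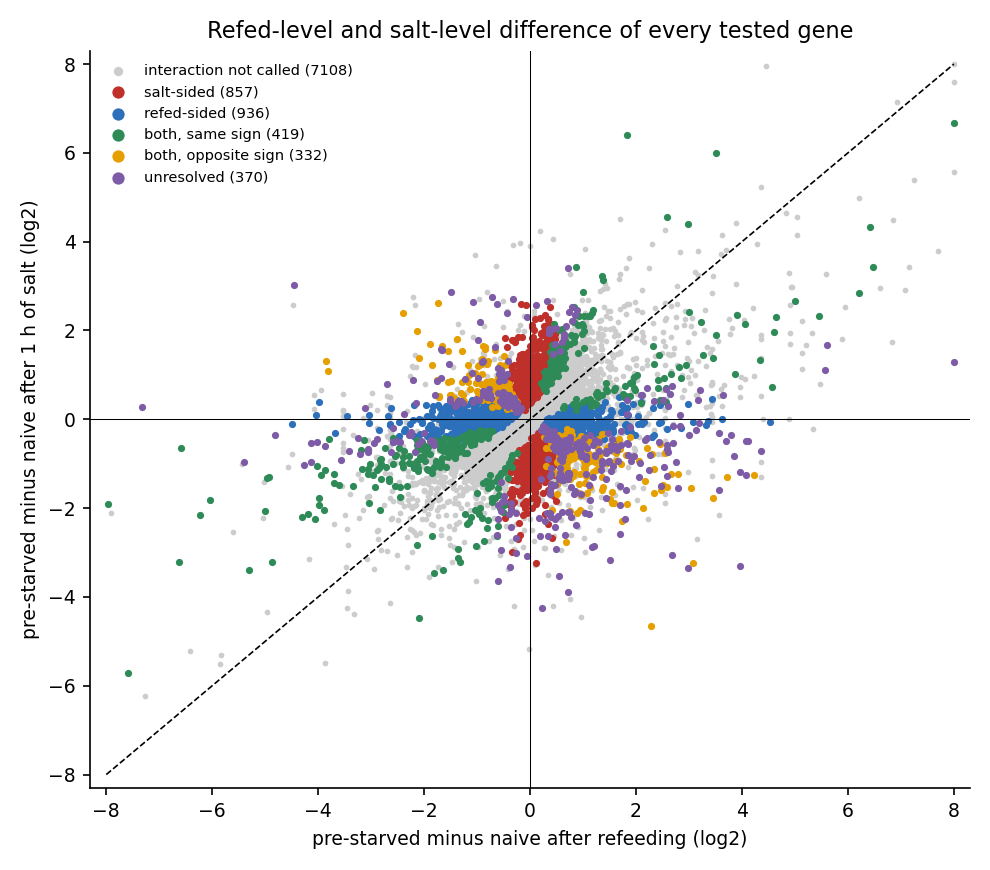
Each point is 1 of the 10022 tested genes, with the log2 refed-level difference on the x axis and the log2 salt-level difference on the y axis; values past 8 are drawn at the edge, the dashed line marks no interaction, and colours mark the classes of called interaction genes. Salt-sided genes (857) lie along the vertical axis, refed-sided genes (936) along the horizontal axis, and genes with called differences of opposite sign (332) in the upper left and lower right.

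The called genes were sorted by where the cultures differed. A gene was salt-sided if its salt-level difference was called, its refed-level difference was not, and the 95% interval of the latter lay within 1 log2 unit of 0. It was refed-sided in the reverse case. There were 857 salt-sided genes (8.55% of tested genes; 582 higher, 275 lower) and 936 refed-sided genes (9.34%; 551 higher, 385 lower). Both differences were called with the same sign for 419 genes (4.18%) and with opposite signs for 332 (3.31%), and 370 (3.69%) were unresolved. With the interval narrowed to 1.5-fold the salt-sided class fell to 564 genes. The class and sign of 1329 of the 2914 genes were the same under all 3 other scalings tried (library totals, DESeq2 size factors, and TMM on the 4 groups alone).

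A readout from other cultures was compared with these classes. Used medium, in which the fungus had earlier grown until carbon and nitrogen were spent, was given for 1 h to separate naive and pre-starved cultures. Of all tested genes, 21.6% were called higher and 18.1% lower in pre-starved than in naive cultures there. Of the 582 salt-sided genes with a higher interaction, 472 (81.1%) were higher in used medium and 0 were lower. Of the 275 salt-sided genes with a lower interaction, 215 (78.2%) were lower and 0 were higher. Among refed-sided genes 8.53% were higher and 11.1% lower in used medium where the interaction was higher, and 6.49% and 13.5% where it was lower. The classes were chosen in part for their salt-level difference, so these shares describe how far the same genes differed in another starvation medium.

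**Figure D2:**
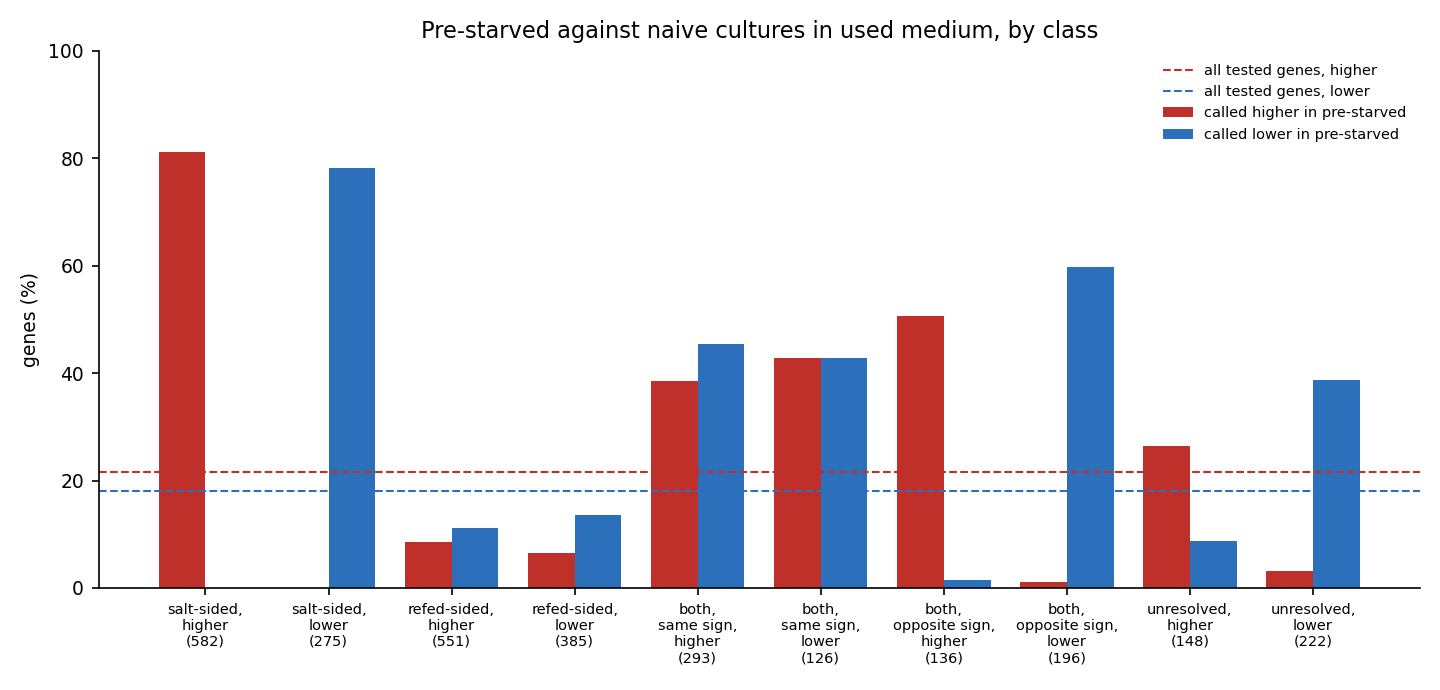
Bars give the percentage of genes of each class called higher (red) or lower (blue) in pre-starved than in naive cultures after 1 h of used medium, with the direction of the interaction and the number of genes under each pair; dashed lines give the percentages over all tested genes, 21.6% and 18.1%. Salt-sided classes reach 81.1% higher and 78.2% lower, and refed-sided classes stay below both lines.

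Salt-sided genes with a higher interaction began at about the same level in both histories and separated in salt. tcsB encodes a histidine kinase related to the osmosensor of yeast. It stood at 212 and 209 CPM in naive refed and at 208 and 217 CPM in pre-starved refed cultures, against 45 and 50.7 CPM in naive salt and 140 and 119 CPM in pre-starved salt. The salt groups did not overlap and the refed groups did. With 2 cultures a group, here and below, groups can easily separate by chance. Its fall in salt was -2.14 in naive and -0.71 in pre-starved cultures on the log2 scale, an interaction of 1.43 ± 0.16 (SE, adjusted p = 9.87e-05). In used medium the same gene differed by 1.55 ± 0.11.

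msh3, which shares its symbol with a yeast DNA mismatch repair gene, moved in opposite directions. It fell from 29.2 and 30.5 CPM to 13.3 and 19.1 CPM in naive cultures and rose from 25.4 and 22.1 CPM to 51.4 and 59.9 CPM in pre-starved cultures. The interaction was 2.11 ± 0.26 (adjusted p = 0.000188). sld2, named for a yeast factor that starts DNA replication, likewise fell in naive (-0.58) and rose in pre-starved cultures (0.80), with an interaction of 1.38 ± 0.27. Genes known here only by identifier did the same: AN7435 went from 33.1 and 29.1 CPM to 10 and 13.2 CPM in naive cultures and from 33.6 and 33 CPM to 49.5 and 61.3 CPM in pre-starved cultures. For AN3557 the interaction was 2.16 ± 0.32. chsG, a chitin synthase gene, fell by 1.10 in naive cultures and had a pre-starved response of -0.24 (adjusted p = 0.0656), an interaction of 0.86 ± 0.15. Of the 9 cell wall synthase genes listed, 1 had a higher and 1 a lower interaction, against 17.1% and 12% of all tested genes. The median of that list was -0.27, beside 0.12 over all tested genes.

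Genes that handle histones or remodel chromatin were grouped by symbol after values had been seen. Of these, 9 of 14 had a called higher interaction and 0 a lower one, against 17.1% and 12% of all tested genes, and 8 of the 9 were salt-sided. All 14 were called higher in pre-starved cultures in salt (24.7% of all tested genes), and 6 of 14 after refeeding (21.4%). hat1, whose yeast namesake acetylates newly made histones, stood at 38.3 and 29.4 CPM in naive refed, 38.7 and 33.1 CPM in pre-starved refed, 15.6 and 13.8 CPM in naive salt and 36.5 and 37.3 CPM in pre-starved salt cultures. It fell in naive cultures and had a pre-starved response of 0.04 (adjusted p = 0.826), an interaction of 1.25 ± 0.23 (adjusted p = 0.00197). hir1, part of a histone deposition complex in yeast, fell by 1.59 in naive and by 0.39 in pre-starved cultures (adjusted p = 0.000184 for the interaction). The ATPase gene rvb1 had an interaction of 0.77 and the histone chaperone gene spt6 one of 0.55. The interactions of ino80, nap1, arp6, spt16 and swr1, from -0.16 to 0.47, did not pass the test. With library totals 13 of 14 were called higher, and with DESeq2 size factors 8; the refed-level count with library totals was 3 higher and 3 lower. The separate list of chromatin modifiers had 1 of 11 called higher and 0 lower, and 3 higher with library totals. The histone list had 3 of 6 called higher and 0 lower, and 5 higher with library totals, 2 with DESeq2 size factors and 2 with the 4 groups alone.

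Regulators of development and secondary metabolism were also among the salt-sided genes. vosA, a velvet-family regulator of spore maturation, stood at 20.4 and 19.2 CPM in naive refed and 17.7 and 17.2 CPM in pre-starved refed cultures. It reached 57 and 63.1 CPM in naive salt and 133 and 134 CPM in pre-starved salt. Both histories rose, the pre-starved one further (interaction 1.34 ± 0.17, adjusted p = 0.000218). The velvet gene veA rose by 0.74 in naive and 1.41 in pre-starved cultures (interaction 0.67 ± 0.16). stuA, a regulator of spore-bearing structures, had an interaction of 0.82 ± 0.20, and nsdD, a regulator needed for sexual development, one of 0.85 ± 0.21. laeA, a global regulator of secondary metabolite clusters, differed at both time points: by 0.63 after refeeding and by 1.48 in salt, an interaction of 0.85 ± 0.14. Of the 12 asexual regulators listed, 4 had a higher and 1 a lower interaction, of the 5 sexual regulators 2 and 0, and of the 6 velvet and global regulators 3 and 0, beside 17.1% and 12% of all tested genes. The sexual list had 1 higher call with DESeq2 size factors or with the 4 groups alone, the velvet list 5 with library totals, and the asexual list 2 lower calls with DESeq2 size factors or the 4 groups alone.

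The ergosterol pathway, which makes the fungal membrane sterol, was grouped by symbol after values had been seen. A higher interaction was called for 10 of 17 genes and a lower one for 1, against 17.1% and 12% of all tested genes. The counts were 12 and 1 with library totals, and 8 and 2 with DESeq2 size factors or with the 4 groups alone. erg6, a late enzyme of the pathway, fell from 208 and 222 CPM to 24.4 and 26.3 CPM in naive cultures and from 207 and 241 CPM to 62.6 and 60.5 CPM in pre-starved cultures (interaction 1.22 ± 0.16, adjusted p = 0.000258). erg5, another late enzyme, fell by 2.89 in naive and by 1.95 in pre-starved cultures (interaction 0.94 ± 0.14). erg13, which acts early in the mevalonate branch, was refed-sided instead: 372 and 362 CPM in naive refed and 135 and 147 CPM in pre-starved refed cultures, and 33 and 38 CPM against 34 and 26.1 CPM in salt. erg4A was the gene called lower (interaction -1.58 ± 0.14). It rose in both histories, less in pre-starved cultures.

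Salt-sided genes with a lower interaction rose less, or fell further, in pre-starved cultures. AN1699 rose from 23.8 and 27.1 CPM to 1200 and 1635 CPM in naive cultures, but from 29.2 and 26 CPM to 173 and 128 CPM in pre-starved cultures. That is a rise of 55.7-fold against 5.47-fold, an interaction of -3.35 ± 0.25 (adjusted p = 1.42e-05). AN7137 rose by 3.31 in naive cultures and had a pre-starved response of 0.23 (adjusted p = 0.369). optB, named as a transporter of small peptides in other fungi, went from 5.04 and 5.45 CPM to 25.5 and 25.8 CPM in naive cultures, and from 5.93 and 6.8 CPM to 5.47 and 6.19 CPM in pre-starved cultures (interaction -2.42 ± 0.42). osm1, whose yeast namesake is a fumarate reductase, rose by 1.00 in naive and fell by 0.76 in pre-starved cultures (interaction -1.76 ± 0.24).

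The heat shock list moved one way: all 5 tested members had a called lower interaction, against 12% of all tested genes, also under each of the 3 other scalings. Their median was -1.48, beside 0.12 over all tested genes. hsp70, a major chaperone gene, stood at 4614 and 6168 CPM in naive refed, 6388 and 8099 CPM in pre-starved refed, 2255 and 2547 CPM in naive salt and 1054 and 1250 CPM in pre-starved salt cultures. It fell in both histories, further in the pre-starved one (interaction -1.49 ± 0.29, adjusted p = 0.00297). The groups did not overlap at either time point, although the refed-level difference of 0.43 ± 0.21 was not called (adjusted p = 0.113). hsp90 had called differences of opposite sign, 0.54 after refeeding and -0.94 in salt. For hsp60, a mitochondrial chaperone gene, the refed-level difference of 0.95 was called and the salt-level difference of -0.52 was not (adjusted p = 0.0666).

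Refed-sided genes with a higher interaction had been lower in pre-starved cultures after refeeding, with a salt-level difference near 0. fdh, named for formate dehydrogenase, stood at 170 and 169 CPM in naive refed but at 37.6 and 33 CPM in pre-starved refed cultures. In salt it reached 1850 and 1799 CPM in naive and 1893 and 1497 CPM in pre-starved cultures, and the groups overlapped. The rise was 10.7-fold against 48.0-fold, an interaction of 2.16 ± 0.27 (adjusted p = 0.000185) with a salt-level difference of -0.11 ± 0.19. aclA, a subunit of the ATP citrate lyase that supplies acetyl-CoA, fell from 786 and 852 CPM to 119 and 144 CPM in naive cultures and from 197 and 254 CPM to 117 and 99.4 CPM in pre-starved cultures. Its interaction was 1.58 ± 0.22. AN1278 stood at 577 and 742 CPM in naive refed and 64.7 and 55.1 CPM in pre-starved refed cultures, and between 373 and 454 CPM in all 4 salt cultures. Its salt response was therefore -0.76 in naive and 2.79 in pre-starved cultures.

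Autophagy genes, which serve bulk recycling of cell contents, followed this course. Of 5 genes with an atg symbol, grouped after values had been seen, 4 had a higher interaction (17.1% of all tested genes) and all 4 were refed-sided, also under the 3 other scalings as to the count called. All 5 were called lower in pre-starved refed cultures (21.3%). The shorter autophagy list had 2 of 3 genes with a higher interaction, and 1 with DESeq2 size factors or with the 4 groups alone. atg1, the kinase that starts autophagy, stood at 232 and 237 CPM in naive refed and at 91.9 and 91.6 CPM in pre-starved refed cultures. In salt it was at 164 and 166 CPM in naive and 194 and 170 CPM in pre-starved cultures. It thus fell by 0.51 in naive and rose by 0.99 in pre-starved cultures (interaction 1.49 ± 0.14, adjusted p = 3.14e-05), with a salt-level difference of 0.14 ± 0.10. atg2, needed to build the autophagosome membrane, rose in both histories, by 0.82 and 1.87. atg15, a lipase gene in yeast, had an interaction of 0.03.

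Proteasome subunits shifted less in size but in one direction. Of 15 genes, again grouped by symbol after values had been seen, 14 were called lower in pre-starved refed cultures (21.3% of all tested genes) and 0 were called in salt, where the median difference was 0.03. A higher interaction was called for 9, all refed-sided, against 17.1% of all tested genes. The count was 15 with library totals, 6 with DESeq2 size factors and 5 with the 4 groups alone. pre5, a core subunit gene, had an interaction of 0.95 ± 0.14, with a refed-level difference of -0.82 and a salt-level difference of 0.13.

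Siderophores are small molecules that fungi release or keep to bind iron. Of the 9 genes listed for siderophores and iron regulation, 5 had a higher and 1 a lower interaction (17.1% and 12% of all tested genes). Those 5 were refed-sided (9.34%). The higher count was 4 with DESeq2 size factors, and 5 with library totals or with the 4 groups alone. sidI, an enzyme of siderophore synthesis in Aspergillus fumigatus, stood at 44.5 and 66.1 CPM in naive refed and 7.33 and 6.15 CPM in pre-starved refed cultures. In salt all 4 cultures were between 0.943 and 1.10 CPM. The interaction was 3.12 ± 0.31 (adjusted p = 5.34e-05) and the salt-level difference 0.09 ± 0.24. AN5823, listed here from background knowledge, had an interaction of 1.94 ± 0.20 and hapX, a regulator of the answer to low iron, one of 0.82 ± 0.17. sidC, the synthetase of the siderophore kept inside the cell, went the other way: it rose by 0.59 in naive and fell by 0.40 in pre-starved cultures. The interaction of sidD, 1.05 ± 0.31, was called in 3 of the 8 fits that left out a culture.

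**Figure D3:**
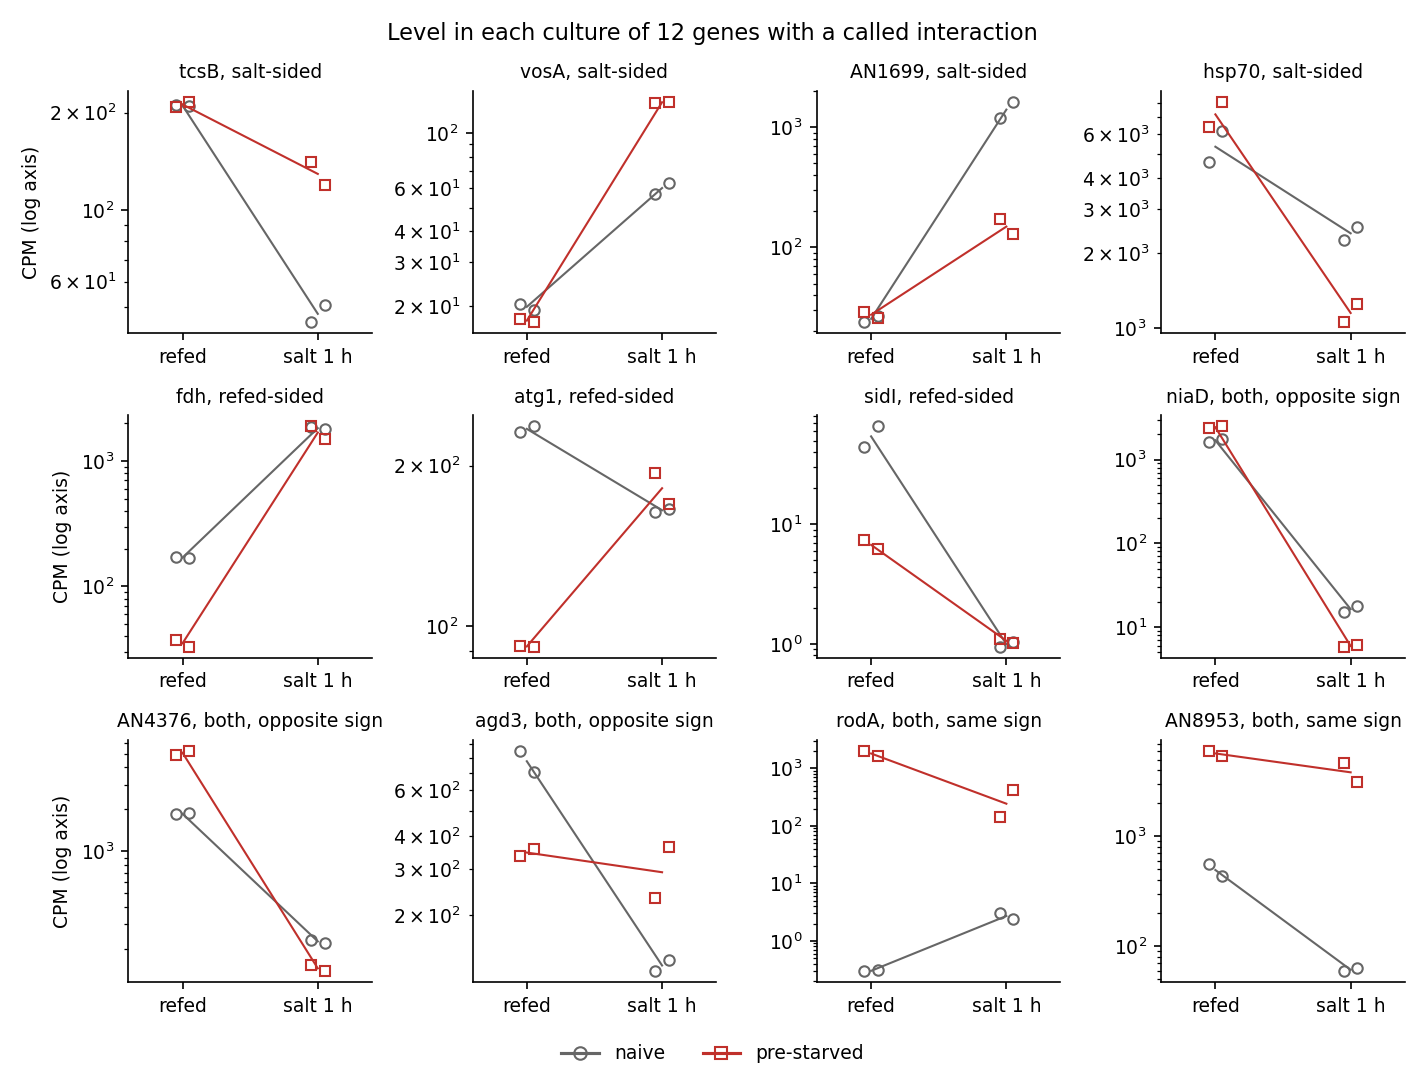
CPM on log axes in each of the 2 cultures per group for 12 genes with a called interaction, after refeeding and after 1 h of salt; circles are naive, squares pre-starved cultures, and lines join geometric means. tcsB, vosA, AN1699 and hsp70 separate in salt, fdh, atg1 and sidI differ after refeeding and come together, and niaD and AN4376 cross.

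Refed-sided genes with a lower interaction had been higher in pre-starved cultures after refeeding. AN0713 stood at 12.2 and 10.5 CPM in naive refed and at 96.6 and 137 CPM in pre-starved refed cultures, and between 20.6 and 24.1 CPM in all 4 salt cultures (interaction -3.40 ± 0.28). metG, a gene of methionine synthesis, was at 51 and 47.5 CPM in naive refed and 142 and 138 CPM in pre-starved refed cultures, and near 14.9 to 18.4 CPM in salt. Glycolysis, the breakdown of glucose, contributed a list in which 8 of 11 members had a called lower interaction and 0 a higher one, against 12% and 17.1% of all tested genes. Of the 8, 5 were refed-sided. The count was 7 with library totals, 9 with DESeq2 size factors and 10 with the 4 groups alone. The median refed-level difference of the list was 0.82 and its median salt-level difference -0.43, and all 11 fell in salt in both histories, as did 39.1% of all tested genes in naive and 36.4% in pre-starved cultures. AN6037 went from 412 and 402 CPM to 187 and 200 CPM in naive cultures and from 1307 and 1506 CPM to 180 and 173 CPM in pre-starved cultures (interaction -1.92 ± 0.17, adjusted p = 2.59e-05). gpdA, which encodes glyceraldehyde-3-phosphate dehydrogenase, fell by 2.98 in naive and by 4.01 in pre-starved cultures. AN5210 and AN6900 of the list did not pass the test, with interactions of -0.64 and -0.49.

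The list for gluconeogenesis and acetate use held 4 called lower interactions among 9 genes and 0 higher ones, against 12% and 17.1% of all tested genes, and 6 lower ones with the 4 groups alone. acuM, a regulator of gluconeogenesis, stood at 91.1 and 90.5 CPM in naive refed, 156 and 165 CPM in pre-starved refed, 124 and 147 CPM in naive salt and 79.2 and 69.8 CPM in pre-starved salt cultures. It rose in naive and fell in pre-starved cultures (interaction -1.69 ± 0.15). The interaction of facB, the regulator of acetate use, was -1.33 ± 0.36 and was called in 4 of 8 fits that left out a culture.

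Nitrate assimilation genes crossed over. niaD, which encodes nitrate reductase, stood at 1631 and 1759 CPM in naive refed and at 2345 and 2502 CPM in pre-starved refed cultures. After 1 h of salt it was at 15.1 and 17.9 CPM in naive and 5.83 and 6.10 CPM in pre-starved cultures. The groups did not overlap at either time point, and the pre-starved cultures were the higher after refeeding and the lower in salt. The interaction was -1.98 ± 0.24 (adjusted p = 0.000183), from a refed-level difference of 0.52 ± 0.17 and a salt-level difference of -1.46 ± 0.18. The nitrite reductase gene niiA had an interaction of -1.58 ± 0.19, the nitrate transporter gene crnA one of -1.66 ± 0.31, and AN0399 one of -1.46 ± 0.17. Of the 5 genes listed, these 4 had a called lower interaction (12% of all tested genes) and both differences called in opposite directions (3.31%). With library totals the refed-level difference was called for 3 of the 5 rather than all 5. The pathway's activator nirA had an interaction of -0.43 (adjusted p = 0.0794).

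Ammonium assimilation followed in part. AN4376 stood at 1852 and 1873 CPM in naive refed, 4925 and 5272 CPM in pre-starved refed, 231 and 223 CPM in naive salt and 153 and 138 CPM in pre-starved salt cultures. It too crossed over (interaction -2.09 ± 0.17, adjusted p = 1.86e-05). AN5134 was at 1059 and 998 CPM in naive refed and 4617 and 5470 CPM in pre-starved refed cultures, and its salt-level difference of -0.40 was not called (adjusted p = 0.134). glnA, glutamine synthetase, had an interaction of -0.76 that missed the threshold (adjusted p = 0.053).

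**Figure D4:**
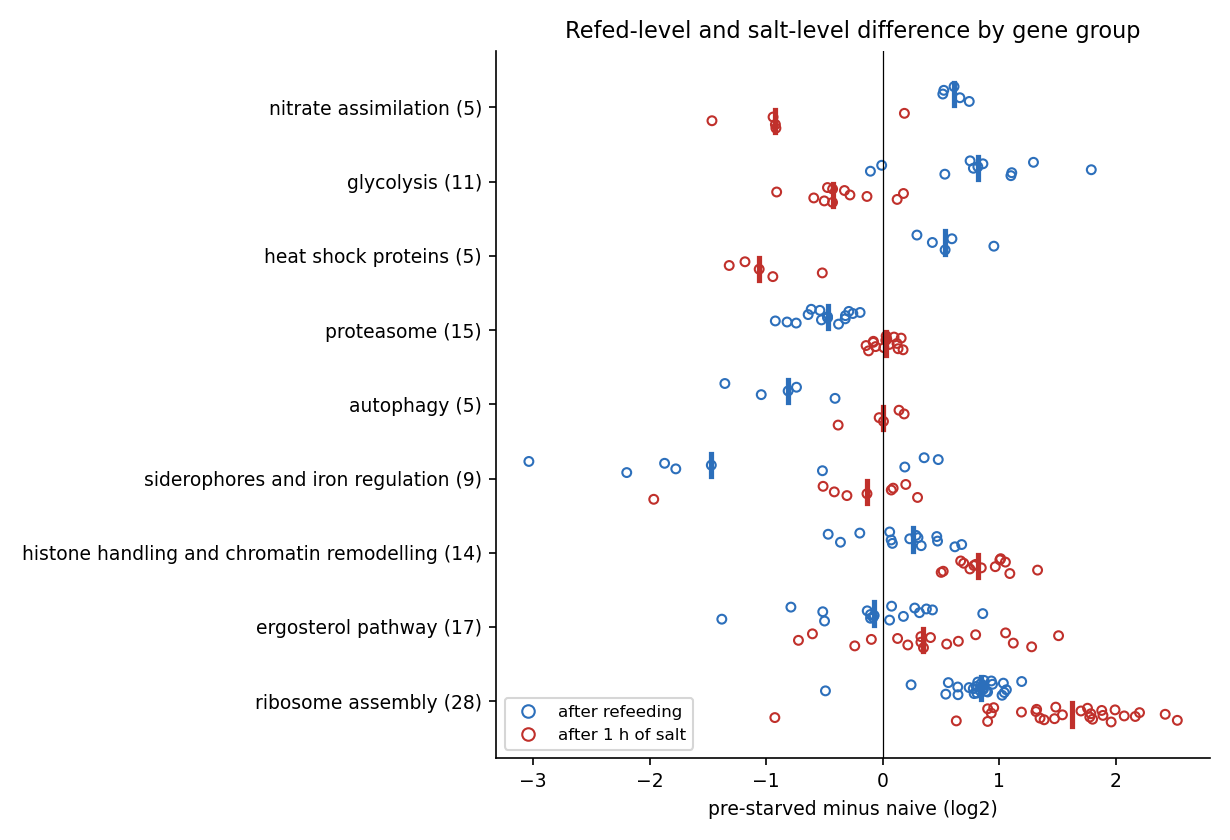
Log2 pre-starved minus naive difference of each tested member of 9 gene groups (number in brackets), after refeeding in blue and after 1 h of salt in red; thick bars are medians. Nitrate, glycolysis and heat shock genes lie mostly right of 0 after refeeding and left of 0 in salt, proteasome and autophagy genes lie left of 0 after refeeding and near 0 in salt, and ribosome assembly genes other than grc3 lie right of 0 at both.

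Other genes crossed in the opposite sense, lower after refeeding and higher in salt in pre-starved cultures. agd3 and gtb3, named for a deacetylase and a glycosyltransferase of cell wall galactosaminogalactan in A. fumigatus, bear consecutive identifiers. agd3 stood at 851 and 707 CPM in naive refed, 337 and 357 CPM in pre-starved refed, 122 and 135 CPM in naive salt and 233 and 366 CPM in pre-starved salt cultures (interaction 2.39 ± 0.32). gtb3 had an interaction of 1.92 ± 0.24. clcA, named for a chloride channel, had a naive response of -0.05 (adjusted p = 0.723) and rose by 1.27 in pre-starved cultures (interaction 1.32 ± 0.18). Crossing as niaD did, luA, an enzyme of leucine synthesis, had an interaction of -2.39 ± 0.27. hmgA, homogentisate dioxygenase of phenylalanine and tyrosine breakdown, rose from 6.88 and 8.79 CPM to 1078 and 938 CPM in naive and from 16 and 17.8 CPM to 622 and 549 CPM in pre-starved cultures (interaction -1.89 ± 0.23).

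Where both differences were called with the same sign, a gap between the histories was present after refeeding and was narrower or wider in salt. rodA, the hydrophobin that coats asexual spores, stood at 0.294 and 0.308 CPM in naive refed and at 2021 and 1620 CPM in pre-starved refed cultures. In salt it was at 3.11 and 2.35 CPM in naive and 142 and 413 CPM in pre-starved cultures. It rose in naive and fell in pre-starved cultures, so the gap narrowed (interaction -5.88 ± 0.94, adjusted p = 0.000518), and the pre-starved salt cultures differed most between themselves. brlA was at 3.84 and 4.24 CPM in naive refed and 127 and 74.5 CPM in pre-starved refed cultures. In salt it was at 14.9 and 17.8 CPM in naive and 68.5 and 92.7 CPM in pre-starved cultures. Its naive response was 2.02 and its pre-starved response -0.32 (adjusted p = 0.269), an interaction of -2.34 ± 0.39. ivoA, of conidiophore pigment synthesis, had an interaction of -3.13 ± 0.73. These are markers of spore-forming cells, and the share of such cells was not measured. Of the 6 hydrophobin and spore pigment genes, rodA and ivoA had a lower interaction, beside 12% of all tested genes, and 0 a higher one. The interaction of ivoB, of the same list, went the other way, 1.59, and was not called (adjusted p = 0.142). brlA was the 1 lower call among the 12 asexual regulators, of which 4 were called higher (17.1% of all tested genes).

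Salt widened the gap for others. gta1 stood at 54.2 and 68.1 CPM in naive refed and 92.9 and 130 CPM in pre-starved refed cultures, and at 7.66 and 7.21 CPM against 78 and 82.6 CPM in salt. The gap grew from 1.82-fold to 10.8-fold (interaction 2.57 ± 0.24, adjusted p = 3.73e-05). AN8953, listed with starch degradation, was at 558 and 438 CPM in naive refed and 6029 and 5382 CPM in pre-starved refed cultures. In salt it fell to 58.9 and 63.1 CPM in naive cultures and was at 4647 and 3162 CPM in pre-starved cultures, a gap of 64.0-fold (interaction 2.48 ± 0.33). AN3388 of the same list was at most 1.3 CPM in all refed and naive salt cultures and at 84.6 and 72.2 CPM in pre-starved salt. Of the 7 starch degradation genes, 2 had a higher and 1 a lower interaction, beside 17.1% and 12% of all tested genes. The median interaction of that list was 0.11, beside 0.12 over all tested genes. cat1, a catalase gene, was lower in pre-starved cultures at both time points, by 0.71 and 1.86 (interaction -1.15 ± 0.19). Of 11 oxidative stress genes 5 had a lower and 1 a higher interaction, beside 12% and 17.1% of all tested genes. The higher one was sod2, a superoxide dismutase gene, at 0.91 ± 0.14.

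AN3229 and AN3230, with consecutive identifiers, stood low after refeeding in pre-starved cultures. AN3230 was at 65.5 and 37.5 CPM in naive refed and 3.03 and 3.19 CPM in pre-starved refed cultures, and between 13.3 and 17 CPM in all 4 salt cultures (interaction 4.15 ± 0.34). AN3229 had an interaction of 5.93 ± 0.37.

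Ribosome assembly genes were higher in pre-starved salt cultures in most cases. Of 28 genes grouped by symbol after values had been seen, 15 were called higher in pre-starved cultures after refeeding and 26 in salt, against 21.4% and 24.7% of all tested genes. The refed-level count was 6 with library totals and 24 with the 4 groups alone, and the salt-level count was 23 to 27 over the scalings tried. All 28 fell in salt in both histories, as did 39.1% of all tested genes in naive and 36.4% in pre-starved cultures. A higher interaction was called for 6 and a lower one for 0, against 17.1% and 12% of all tested genes. The count was 8 with library totals, 3 with DESeq2 size factors and 9 with the 4 groups alone. noc4, a ribosome assembly gene in yeast, had an interaction of 1.14 ± 0.30, called in 5 of the 8 fits that left out a culture. Among 14 peroxisome formation genes 5 had a lower and 1 a higher interaction (12% and 17.1% of all tested genes), and 3 and 3 with library totals. Of these genes 13 were lower in pre-starved cultures in salt (18.2% of all tested genes).

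Secondary metabolite clusters, which the series' title concerns, held 13 called interactions among 55 tested genes of 9 clusters (23.6%), beside 29.1% of all tested genes. In the sterigmatocystin cluster 2 genes were higher and 2 lower of 15 tested, with 4 higher under library totals and 1 with the 4 groups alone. The asperfuranone cluster had 1 higher and 2 lower of 6, aspyridone 1 and 1 of 5, penicillin 0 and 1 of 3, orsellinic acid 0 and 1 of 5, and asperthecin 0 and 2 of 3. The higher call of the asperfuranone cluster was lost with the 4 groups alone, where the orsellinic acid cluster had 2 lower calls. AN7820, the sterigmatocystin regulator aflR by the list, was at 0.465 and 0.261 CPM in naive refed and 0.285 and 0.292 CPM in pre-starved refed cultures. In salt it reached 4.44 and 2.52 CPM in naive and 7.98 and 6.63 CPM in pre-starved cultures. The salt groups did not overlap, and the salt-level difference of 1.07 ± 0.30 was called (adjusted p = 0.013), but the interaction of 1.39 ± 0.58 was not (adjusted p = 0.0912). One strain named in the labels carries alcA(p)-sGFP-aflR and the labels do not give the strain of each sample, so reads of such a transgene and of the native gene cannot be told apart. AN7825, the polyketide synthase gene stcA by the list, fell by 0.77 in naive and by 2.98 in pre-starved cultures (interaction -2.21 ± 0.36). AN7806, stcU by the list, was at most 0.123 CPM in all 4 salt cultures and had an interaction of -1.58 ± 0.95 (adjusted p = 0.223). In the asperthecin cluster, nscA had a lower interaction, -1.25 ± 0.26. No gene of the monodictyphenone (11 tested), emericellamide (4 tested) or terrequinone (3 tested) clusters was called by edgeR for the interaction. Of them 1, 1 and 0 had an unadjusted p under 0.05, beside 4054 of all 10022 tested genes. With library totals 1 emericellamide gene was called, and with DESeq2 1 terrequinone gene. The levels themselves differed in several clusters. After refeeding, 5 of 5 orsellinic acid, 3 of 3 terrequinone and 3 of 3 penicillin genes were called higher in pre-starved cultures (21.4% of all tested genes). In salt, 6 of 11 monodictyphenone genes were called higher and 0 lower (24.7% and 18.2%), and 4 higher with DESeq2. The sterigmatocystin cluster had 2 higher and 4 lower refed-level calls, and 2 and 3 in salt.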

How the data were processed

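Per the labels, RNA was sequenced as single-end reads from TruSeq v2 libraries, a kit that keeps no strand, and mapped to the FGSC A4 genome; tools listed in the submitters' processing notes are Trimmomatic 0.36, HTSeq, edgeR, BWA and limma, with roles not given. The authors deposited raw counts per gene for 32 libraries, here grouped by the labels. The log2 FPKM columns, 1 per group, and the log2 exon length that the authors deposited beside them were not used. Technical libraries were summed per culture, TMM factors were computed, and 10022 of 10681 genes were kept (edgeR filter, minimum count 10, minimum total 15); the 659 left out held 0.00149% of counts. All 16 cultures entered 1 edgeR 4.0.16 quasi-likelihood fit in R 4.3.3 with 1 mean per group (common biological coefficient of variation 0.160), and p-values were adjusted by Benjamini-Hochberg over all tested genes, with a threshold of 0.05. Values after ± are standard errors of log2 differences from that fit. With 2 cultures a group, precision rests on 8 residual degrees of freedom. To these the fit added a median of 4.07 by sharing the estimate of spread across genes. Depth limits mainly genes near 0. In simulated counts for the interaction of 9995 genes, 100 genes were given a 2-fold and 100 a 4-fold change. There, 42% of the 2-fold and 95% of the 4-fold changes were recovered, and 8.05% of the calls in that simulation were false. The simulated spread followed the trend with expression level and did not vary further from gene to gene. Changes were placed only in genes whose level was neither very low nor very high. The rates for noisier or scarcer genes were not tested. How these rates change when 29.1% of genes are called, as in the data, was not tested either.

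Members, lists and tests were chosen with earlier results of these data known. Genes were named as the 5 largest called interactions per class and direction (highest group mean at least 10 CPM, same sign without any 1 culture), as up to 4 members of each list with a call (the highest and lowest interactions), and aflR, stcA, stcU, niaD, brlA and rodA. Named after their values were seen were the same leading genes among those with a reference symbol, and the 10 groups assembled by symbol. So were further list members such as niiA, gpdA, hsp90, hapX, acuM, facB, veA and stuA. Among the symbol groups, ribosomal proteins (7 genes) and translation initiation (5 genes) had 0 called interactions. With library totals 1 ribosomal protein gene was called, and with DESeq2 1 translation initiation gene. Chaperones by symbol had 0 higher and 6 lower of 8. Siderophores by symbol had 6 higher and 1 lower of 12, and 4 higher with DESeq2 size factors. Of all tested genes, 17.1% were higher and 12% lower. The 32 lists (236 genes, 227 tested) were compiled from background knowledge. RefSeq symbols were available for 774 tested genes; others are given by identifier. Lists by product description were not built. Alternatives were DESeq2 1.42.0, other scalings, filters, replicate blocks, single technical libraries, limma 3.58.1 with duplicate correlation, and leaving out each culture.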

Additional observations from a re-analysis of the deposited data

Results flagged for a closer look

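Each of the 2914 called interactions is a tested difference between the salt responses of naive and pre-starved cultures. For 249 of them both responses were called and ran in opposite directions. No group has the 4 samples that a search for single outlying cultures needs. The genes with opposite called responses that the naming rule, the lists or the symbol groups hold, with at least 3 counts in every culture of the 4 groups, are given with their log2 interaction. Positive values, where the naive response was down and the pre-starved one up, were 6.07 for AN3246, 5.93 for AN3229, 4.21 for AN8507, 4.15 for AN3230, 3.62 for AN11211, 3.58 for AN5859, 3.54 for AN1278 and 3.48 for AN11981. They were 2.16 for AN7435 and for AN3557, 2.11 for msh3, 1.90 for ish1, 1.49 for atg1, 1.38 for sld2, 1.26 for mdmB, 1.08 for AN8694 and 0.91 for sod2. Negative values, where the naive response was up and the pre-starved one down, were -5.88 for rodA, -4.00 for AN3203, -3.40 for AN0713, -3.37 for AN2228, -3.28 for AN5634, -3.03 for AN0230, -3.01 for ccpA, -2.65 for AN5558, -1.76 for osm1, -1.69 for acuM, -1.51 for pex19 and -0.99 for sidC.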

How the results depend on the processing

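The count of called interactions stayed between 2502 and 3652 over all settings that kept every culture, and between 2109 and 2474 when 1 culture was left out. Higher calls rose from 1710 to 2840 with library totals, while the 4 groups alone gave 48.1% higher calls; the salt-sided class held 564 genes with the narrower interval. Unresolved genes numbered 216 with 32 libraries and duplicate correlation, 944 with the narrower interval and 92 when a missed call alone placed a gene. Leaving out 1 culture gave 1193 to 1486 higher and 888 to 1029 lower interactions, 2999 to 4251 refed-level and 3135 to 4290 salt-level differences, and 6889 to 7551 naive and 7057 to 7647 pre-starved responses. The classes then held 578 to 742 salt-sided, 666 to 787 refed-sided, 234 to 345 same-sign, 212 to 285 opposite-sign and 306 to 392 unresolved genes. The same-sign count was 269 and 237 without naive refed culture A and B, 234 and 250 without naive salt A and B, 270 without pre-starved refed B and 248 without pre-starved salt B, and the opposite-sign count was 212 without naive salt A. Without naive refed culture B the refed-level count was at its lowest, and without naive salt culture A the salt-level count. The cause was not tested. The replicate block gave 2876 interactions. Same-lettered cultures deviated with correlations from -0.24 to 0.19, so no large shared deviation was seen. These values cannot tell whether cultures with the same letter were handled together. The 200 called genes checked came from the naming rule, the lists and the symbol groups. Of these, 148 kept sign and call in every setting, and 0 reversed. Genes named by class were chosen for large interactions with the same sign without any 1 culture, so their lack of reversal there was fixed in advance. Over all 2914 called genes, 1597 were called in each of the 8 fits that left out 1 culture. Depth limits genes such as AN7806.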
